A study of Rattus norvegicus with 4 samples.

Results

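The genes described are the numbered members of the tumour necrosis factor (TNF) superfamily, their numbered receptors and the TRAF adaptor proteins. They were chosen by symbol, as the rat RefSeq genes whose names begin with Tnfsf, Tnfrsf or Traf followed by a digit. This gave 44 symbols, of which 4 are pseudogenes of Traf4, Traf7 and Traf3ip2, and 32 were matched to a probe, out of 16581 named genes so matched. The cells were of NR8383, an established alveolar macrophage line that came from the lung lavage of a normal rat. All 4 samples belonged to 1 group, replicates kept for 4 h with carbon black Printex 90 at 0.9 cm2/cm2, each on its own 1-colour Agilent array. The labels do not say whether they came from separate cultures, so the spread between them may be technical. The labels give 20 passages, 48 h in the flask after seeding, medium with 15% serum, and a culture of 50% adherent and 50% floating cells. Cells incubated without particles were not analysed here, so no value below is an effect of carbon black. In such mixed cultures fewer expressing cells and less RNA per cell cannot be told apart.

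Ligands of the TNF superfamily are mostly membrane proteins that act as trimers, and many can be shed. Their receptors either carry a death domain, which recruits adaptors such as TRADD and FADD, or bind TRAF proteins directly. TRAF proteins pass the signal to ubiquitin ligases and kinases that activate NF-kappaB and MAP kinases, and TRAF6 also serves Toll-like and interleukin-1 receptors. Alveolar macrophages are a known source of TNF and respond to it.

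A level is log2 of the processed intensity minus the array's 75th percentile over probes, so that 0 is that percentile, and values are given for replicates 1, 2, 3 and 4 in that order. The scanner software marks a spot as well above background, and a gene was counted as detected on an array if a probe of it had this mark. The dimmest marked spot had a level of -2.29, -3.05, -2.56 and -2.40, respectively. Where the mark is missing, the level is only a bound. The mark also depends on the spot's own surroundings, so a level just above this limit can lack it. Between 37.5% and 40.9% of probes were detected on an array, and no spot was saturated. Macrophage markers were present, with 10 of 12 measured markers on all 4 arrays, among them Cd68, Ptprc, Spi1 and Lyz2, while Marco and Adgre1 were on no array. All 5 epithelial markers, 3 of 4 measured B cell and plasma cell markers and 7 of 10 T and NK cell markers were on no array. The level of a probe is not set against that of another, since binding strength is a property of the probe, and the number of arrays limits every SD.

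Signal from every array was found for 14 of the 32 measured genes (43.8%), signal from some arrays for 4, and no array gave signal for the remaining 14. Among all named genes, 48% were so on all 4 arrays and 44% on no array, so the family as a whole lay near that background. The counts by role, which were not tested against each other, were as follows. Of 5 measured TRAF adaptors, 4 were on all arrays and 1 on none, and all 3 genes encoding TRAF3-interacting proteins, which the symbol rule takes in but which are no TRAF proteins, were on all arrays. Of 9 measured ligands, all arrays had 3, some had 2 and no array had 4. The 15 measured receptors split into 4 with signal throughout, 2 with partial signal and 9 without. No probe was matched for Tnfsf8, Tnfsf18, Tnfrsf10b, Tnfrsf13c, Tnfrsf22, Tnfrsf26, Traf3 or Traf5, or for the pseudogenes.

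**Figure D1:**
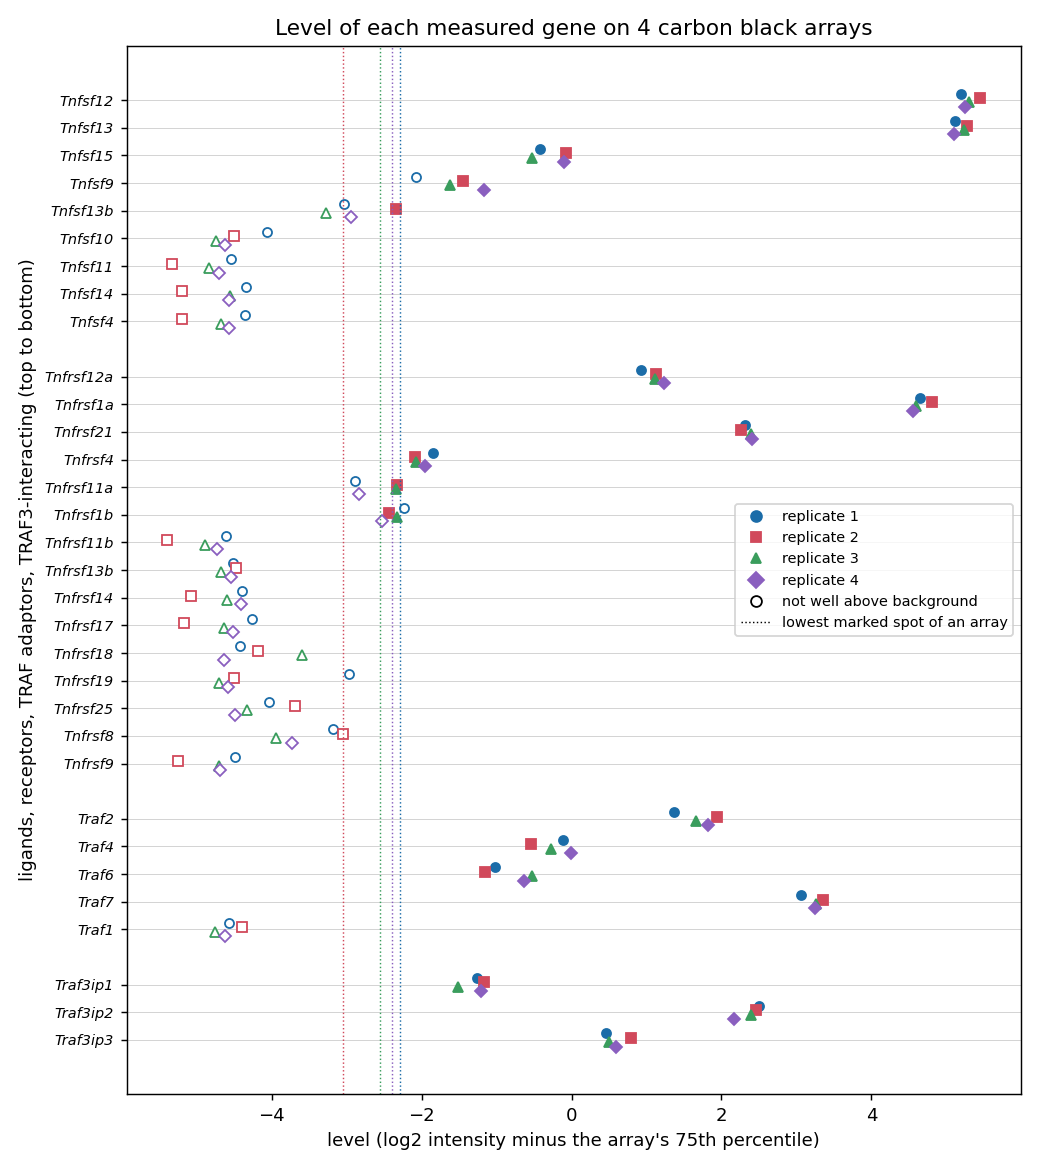
Level of each of the 32 measured genes (log2 intensity minus the array's 75th percentile, x axis) on the 4 arrays, ordered by role and by number of arrays with signal. Filled symbols are well above background and open symbols are not, dotted lines mark the lowest marked spot of each array, and 14 genes have filled symbols on all 4 arrays. Levels can be compared along a row, between arrays, and not between rows.

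Among the ligands, TWEAK and APRIL had signal on every array. Tnfsf12 (NM_001001513), which encodes TWEAK, a ligand tied to tissue repair and inflammation, had levels of 5.20, 5.45, 5.31 and 5.25, with a mean of 5.30 ± 0.11 (SD, n = 4). Tnfsf13 (NM_001009623), which encodes APRIL, a survival factor for plasma cells, had levels of 5.12, 5.28, 5.24 and 5.10, with a mean of 5.18 ± 0.087 (SD, n = 4). The highest array was replicate 2 for both genes, and the highest and lowest arrays differed by 1.19-fold for Tnfsf12 and 1.13-fold for Tnfsf13. The genes are neighbours on rat chromosome 10, with no protein-coding gene between them in RefSeq's annotation of GRCr8. Tnfsf15 (NM_145765), which encodes TL1A, a costimulator of T cells, was the third ligand on all arrays. Its levels were -0.42, -0.069, -0.52 and -0.095 (mean -0.28 ± 0.23, SD, n = 4), with replicates 2 and 4 close together above replicates 1 and 3.

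Signal was partial for Tnfsf9 and Tnfsf13b. Tnfsf9 (NM_181384), the ligand of the T cell costimulator CD137, had levels of -2.08, -1.45, -1.62 and -1.16 and was detected on 3 arrays. Replicate 1 was both the lowest and the array without the mark. Tnfsf13b (XM_006253480), which encodes the B cell survival factor BAFF, was detected on replicate 2 at -2.34, and its values of -3.03, -3.28 and -2.94 on the other arrays are bounds. The ligand genes on no array were Tnfsf4 (OX40 ligand), Tnfsf10 (TRAIL, which induces apoptosis), Tnfsf11 (RANKL, the osteoclast factor) and Tnfsf14 (LIGHT, a ligand of the lymphotoxin beta receptor).

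The TNF receptors differed in detection. Tnfrsf1a (NM_013091), the death domain receptor for TNF found on most cells, had levels of 4.65, 4.80, 4.60 and 4.56, with a mean of 4.65 ± 0.11 (SD, n = 4). Tnfrsf1b (NM_130426), the TRAF-binding TNF receptor typical of leukocytes, was detected on replicates 2 and 3 only. Its levels of -2.24, -2.43, -2.33 and -2.53 lay between 0.131 below and 0.619 above the lowest marked spot of the same array. The values on replicates 1 and 4 are bounds, so these arrays are not ranked.

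Of the other receptors, 3 were on all arrays. Tnfrsf12a (NM_181086), which encodes Fn14, the TWEAK receptor that is induced by growth factors and injury, had levels of 0.93, 1.12, 1.11 and 1.23 (mean 1.099 ± 0.12, SD, n = 4). Replicate 1 was lowest and replicate 4 highest. Its probe was spotted 10 times on each array. The SD between these spots was 0.070, 0.082, 0.080 and 0.114, and the SD between arrays was 0.123. An array's level is the mean of its 10 spots, so the SD of single spots overstates the spot noise in that level. Tnfrsf21 (NM_001108207), which encodes the death receptor DR6, had levels of 2.32, 2.26, 2.40 and 2.40 (mean 2.34 ± 0.066, SD, n = 4). With the percentile over detected probes its SD was 0.112. Tnfrsf4 (NM_013049), which encodes the T cell costimulatory receptor OX40, had levels of -1.85, -2.09, -2.08 and -1.95 (mean -1.99 ± 0.11, SD, n = 4). This signal was dim and lay between 0.436 and 0.962 log2 units above the lowest marked spot of each array. Of the T and NK cell markers, Cd3d, Cd4 and Lck were on all arrays, while Cd3e, Cd3g, Cd2, Cd5, Cd8a, Ncr1 and Klrb1 were on none. The source of the Tnfrsf4 signal was not tested.

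Tnfrsf11a (NM_001271235), which encodes RANK, the receptor that drives osteoclast formation from macrophage precursors, was detected on replicates 2 and 3 at -2.32 and -2.35. Its values of -2.89 and -2.83 on replicates 1 and 4 are bounds. The 9 receptors on no array were Tnfrsf8 (CD30), Tnfrsf9 (CD137), Tnfrsf11b (osteoprotegerin, the decoy of RANKL), Tnfrsf13b (TACI), Tnfrsf14 (HVEM), Tnfrsf17 (BCMA), Tnfrsf18 (GITR), Tnfrsf19 (TROY) and Tnfrsf25 (DR3). Over the 14 genes of the family on no array, levels lay between -5.39 and -2.96. Tnfrsf8 on replicate 2 came nearest to the limit, at -3.05, just under the lowest marked spot. Tnfrsf19 was marked on no array, so its levels of -2.96, -4.51, -4.70 and -4.59 are bounds and its arrays are not ranked. Its processed intensity on replicate 1 was 13.98, under the 99th percentile of 27.1 among the negative control spots of that array.

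Most of the measured TRAF adaptors had signal. Traf2 (NM_001107815), the main adaptor of TRAF-binding TNF receptors and of TRADD, had levels of 1.37, 1.94, 1.66 and 1.82 (mean 1.70 ± 0.25, SD, n = 4). Traf6 (NM_001107754), the ubiquitin ligase that serves CD40, RANK and Toll-like receptors, had levels of -1.02, -1.16, -0.53 and -0.64 (mean -0.84 ± 0.30, SD, n = 4). Replicate 1 was the lowest array for Traf2, whereas Traf6 was low on replicates 1 and 2 and higher on replicates 3 and 4. Traf4 (NM_001107017), a TRAF best known from development, had levels of -0.11, -0.54, -0.28 and -0.0037 (mean -0.23 ± 0.23, SD, n = 4). Traf7 (NM_001127548), which has WD40 repeats in place of the TRAF domain, had levels of 3.06, 3.36, 3.26 and 3.25 (mean 3.23 ± 0.13, SD, n = 4). The SD of Traf2 was 0.141 without replicate 1, and that of Traf4 was 0.137 without replicate 2. Traf1 (NM_001271240), an adaptor that pairs with TRAF2 and is a classical NF-kappaB target, was on no array, at -4.57, -4.40, -4.76 and -4.62, which lay between 1.35 and 2.28 log2 units under the lowest marked spot.

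Among the TRAF3-interacting genes, Traf3ip2 (NM_001044248), which encodes ACT1, the adaptor of the interleukin-17 receptor, had levels of 2.50, 2.46, 2.39 and 2.17 (mean 2.38 ± 0.15, SD, n = 4). Traf3ip1 (NM_001012204), a component of the transport machinery of cilia, had levels of -1.26, -1.16, -1.51 and -1.21 (mean -1.29 ± 0.16, SD, n = 4). Traf3ip3 (NM_001014132), known from lymphocytes, had levels of 0.47, 0.79, 0.50 and 0.59 (mean 0.59 ± 0.15, SD, n = 4). Traf3ip2 was lowest on replicate 4 and Traf3ip1 on replicate 3, while Traf3ip3 was highest on replicate 2.

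Relatives of the family that carry other symbols were followed as a fixed list of 15 genes, of which 14 were matched to a probe. On all 4 arrays were 6 of them, and 8 were on none. Tnf, the founding cytokine, had levels of 3.83, 4.04, 3.81 and 4.28 (mean 3.99 ± 0.22, SD, n = 4), with replicate 4 highest. Ltb, which encodes lymphotoxin beta, had 3.24, 3.33, 3.35 and 3.20 (mean 3.28 ± 0.074, SD, n = 4). The lymphotoxin beta receptor gene Ltbr had 6.13, 6.43, 6.33 and 6.15 (mean 6.26 ± 0.14, SD, n = 4). The death receptor gene Fas had a mean of -0.68 ± 0.16 (SD, n = 4), the orphan receptor gene Relt 4.33 ± 0.12 and the ectodysplasin gene Eda -1.31 ± 0.43. Lta, Faslg, Cd40lg, Cd70, Cd40, Cd27, Ngfr and Edar were on no array, and Eda2r was not matched to a probe. Lta and Ltb lie on either side of Tnf on chromosome 20 in RefSeq's annotation, and of these 3 neighbours only Lta was not marked on any array. Its levels of -2.74, -2.89, -2.37 and -2.75 are bounds. They differed from the lowest marked spot of the same array by -0.45, 0.16, 0.19 and -0.36, so Lta was close to the limit.

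Ligands and receptors were then set side by side, as 22 textbook pairs of measured genes that were listed with the values known. In 3 pairs ligand and receptor were both on all 4 arrays, namely Tnf with Tnfrsf1a, Tnfsf12 with Tnfrsf12a, and Ltb with Ltbr. In 4 pairs the ligand was on all arrays and the receptor on none. These were Tnfsf13 with Tnfrsf13b, Tnfsf13 with Tnfrsf17, Tnfsf15 with Tnfrsf25, and Eda with Edar. In 4 other pairs the receptor was on all arrays and the ligand on none, which were Lta with Tnfrsf1a, Tnfsf14 with Ltbr, Tnfsf4 with Tnfrsf4, and Faslg with Fas. The ligand was on no array and the receptor on none in 5 pairs, among them Cd40lg with Cd40 and Cd70 with Cd27. The remaining 6 pairs had a partner on some arrays only. Among all named genes 48% were on all arrays and 44% on none, so each of these states also arises among unrelated genes. The pair counts were not tested against those shares and are no result about the family. A pair shares no probe, but several pairs share a gene, so they are not independent. Each pair names a single ligand gene and a single receptor gene, so a ligand built from several proteins is not covered. Transcripts do not show whether a protein is on the cell surface.

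**Figure D2:**
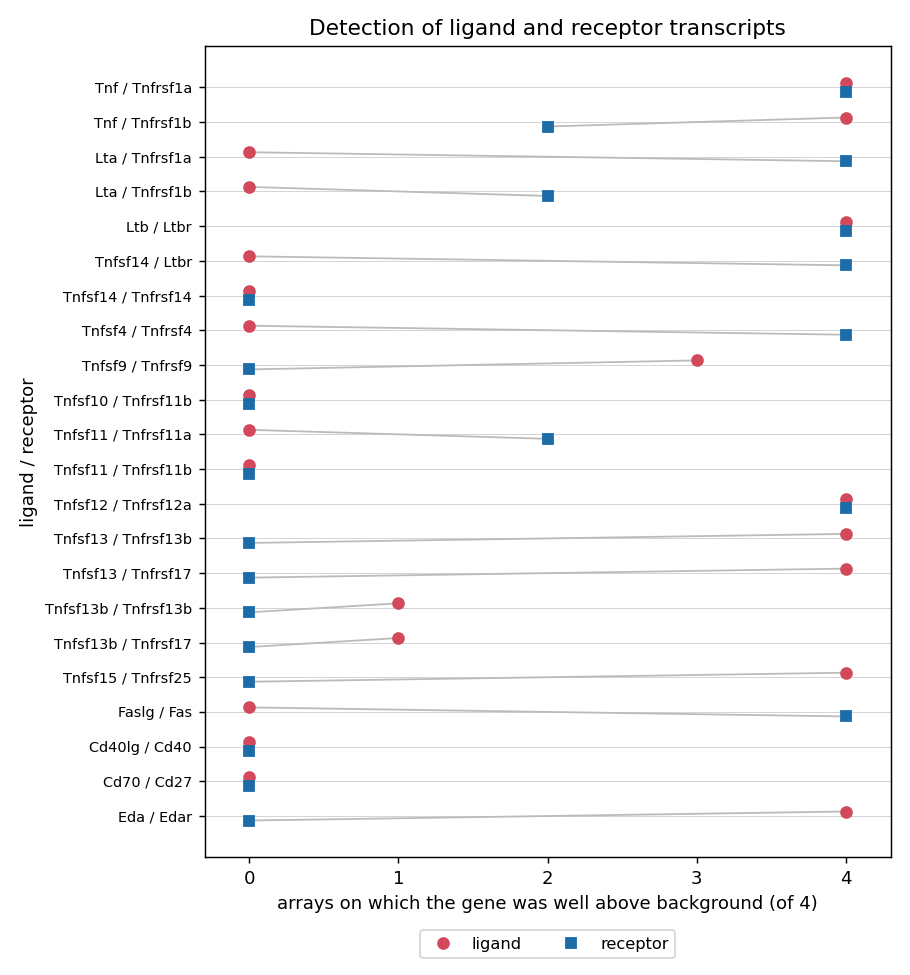
Number of arrays, of 4, on which the ligand (circle) and the receptor (square) of each of 22 pairs were well above background. Only Tnf with Tnfrsf1a, Tnfsf12 with Tnfrsf12a and Ltb with Ltbr have both symbols at 4.

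Genes that act downstream of these receptors were followed as further lists, against the 48% of all named genes that had signal on all 4 arrays. Of 25 measured genes of receptor-proximal signalling, 22 were on all arrays, among them the adaptor genes Tradd and Fadd, the kinase gene Ripk1 and the linear ubiquitin ligase genes Rnf31, Rbck1 and Sharpin. Birc3, which encodes a TRAF2-bound ubiquitin ligase, and Map3k5 were on 2 arrays, Tbk1 was on 3, and no probe was matched for Tab2, Tab3 or Tnfaip3. Of 9 measured genes through which interleukin-1 and Toll-like receptors reach TRAF6, 6 were on all arrays and Peli3 on 3. Irak4 and Peli2 were on none, and Tirap and Ticam1 were not matched. All 7 measured NF-kappaB subunits and inhibitors were on all arrays, while Rel and Relb were not matched.

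Spread between replicates lay near that of other genes. Over the 14 genes on all arrays the median SD was 0.135 log2 units, from 0.066 for Tnfrsf21 to 0.299 for Traf6, against a median of 0.150 over the 13446 genes and unnamed transcripts on all arrays, and 5 of the 14 lay above that median. The order of the genes by SD changed with the processing, and the widest SD with normexp background correction was that of Traf3ip2, at 0.251. In a one-sided F test of each gene's variance against that of genes of like brightness (limma, Benjamini-Hochberg adjustment over 14925 genes), 0 of 17 tested members passed. In simulated data of this size the test missed most genes of widened spread, so missing the threshold does not show that a gene's spread was ordinary. The background was 0.462% at an adjusted p under 0.05 and 5.07% at an unadjusted p under 0.05, where 0 members passed too. The smallest p among members was that of Traf2 (adjusted p = 0.987, limma), whose highest and lowest arrays differed by 1.49-fold, the highest being replicate 2. Among the relatives 0 of 6 tested passed (limma), and 0 had an unadjusted p under 0.05.

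No array carried the whole family up or down. The lowest level fell on replicate 1 for 5 of the 14 genes, with 4, 2 and 3 genes for the other arrays. Over all genes so detected these shares were 38.8%, 13.3%, 14.3% and 33.5%. The highest level fell on replicates 1 to 4 for 2, 8, 1 and 3 of the 14 genes, against 22%, 40.8%, 18.1% and 19.1% of all genes. With the percentile taken over detected probes, replicate 2 was highest for 3 of the 14 genes and replicate 4 for 7. Of all 13446 genes, 2546 and 4076 were then highest on these arrays, so the counts over all genes moved in the same direction. The median deviation of the 14 genes from their own means was -0.085, 0.111, -0.017 and 0.051 on the 4 arrays, and that of all genes was -0.040, 0.070, 0.011 and -0.028. The members lowest on replicate 1 were Tnfsf12, Tnfrsf12a, Traf2, Traf7 and Traf3ip3. Replicate 1 was also the array with the highest background, with a 99th percentile of processed intensity of 27.1 among negative control spots against 7.40, 4.95 and 6.25, and its part in these values was not tested.

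**Figure D3:**
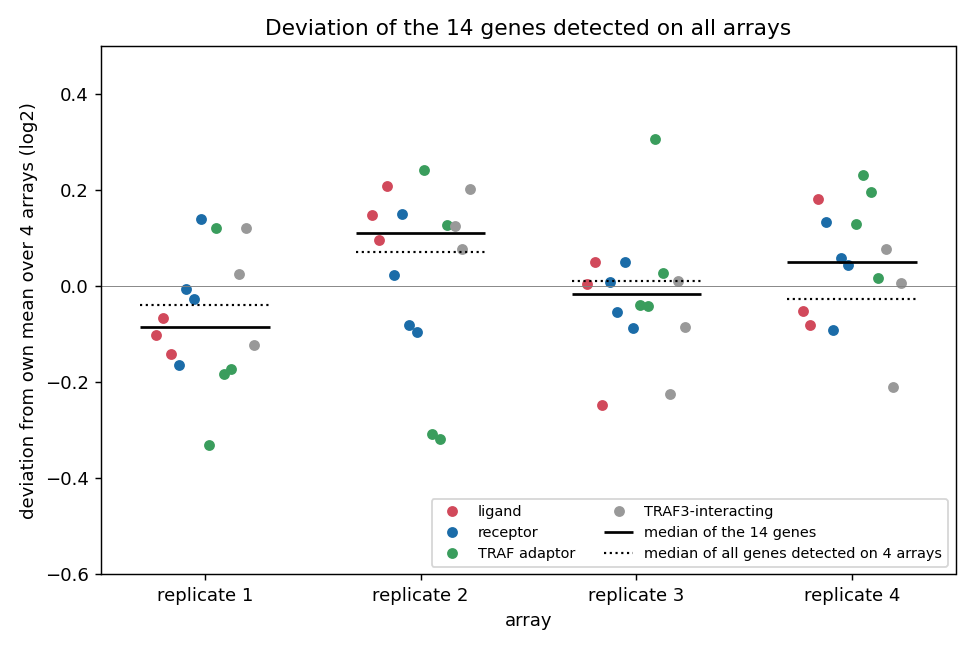
Deviation of each of the 14 genes on all arrays from its own mean over the 4 arrays (log2, y axis), by array and coloured by role, with the median of the 14 genes (solid) and of all genes detected on all arrays (dotted). Most points lie within 0.3 log2 units of 0, and with this scaling the points farthest from 0 belong to TRAF adaptors.

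The levels of the NF-kappaB list by array are given as a description, since this pattern was singled out after its values were seen. Nfkbia, which encodes the inhibitor induced by NF-kappaB itself, had levels of 3.46, 3.80, 3.86 and 4.23, and Rela, a main subunit, 3.27, 3.80, 3.60 and 3.88. These 2 genes had the widest SD of the list, 0.31 and 0.27. Of the 7 genes, 6 were highest on replicate 4, against 19.1% of all genes, and 5 were lowest on replicate 1, against 38.8%. Bcl3 ran the other way, at 0.85, 0.70, 0.80 and 0.49, highest on replicate 1 and lowest on replicate 4, and Nfkb1 was lowest on replicate 3. The counts of 6 and 5 were the same with the percentile over detected probes, that over all spots and quantile normalization. With these, 25.2% to 30.3% of all genes were highest on replicate 4 and 30.3% to 33.2% lowest on replicate 1. With normexp background correction 3 of the 7 were highest on replicate 4 and 2 were lowest on replicate 1, against 14.5% and 23.2% of all genes. Nfkbia had an unadjusted p of 0.034 and an adjusted p of 0.831 (limma), and 0 of the 7 passed. Among the members on all arrays, Tnfrsf12a, Tnfrsf21 and Traf4 were highest on replicate 4.

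Several genes had more than 1 probe, which allows a check within the array. Both members with a pair of probes, Traf3ip1 and Traf3ip2, had each probe on all 4 arrays. The other Traf3ip1 probe had levels of -1.499, -1.48, -1.91 and -1.098 and was lowest on replicate 3, as was the probe used, but the highest array was replicate 4 against replicate 2. The other Traf3ip2 probe had levels of 0.20, 0.34, 0.47 and -0.097 and was lowest on replicate 4, as was the probe used, but the highest array was replicate 3 against replicate 1. Among the relatives, the other Tnf probe deviated from its own mean by -0.16, 0.044, -0.37 and 0.49, alongside -0.16, 0.048, -0.18 and 0.29 for the probe used. The probes of Fas did not run alike. The Fas probe used was on all arrays, while the other had levels of -1.43, -2.97, -3.37 and -3.61 and was marked on replicate 1 only. The other Eda probe was on no array.

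**Figure D4:**
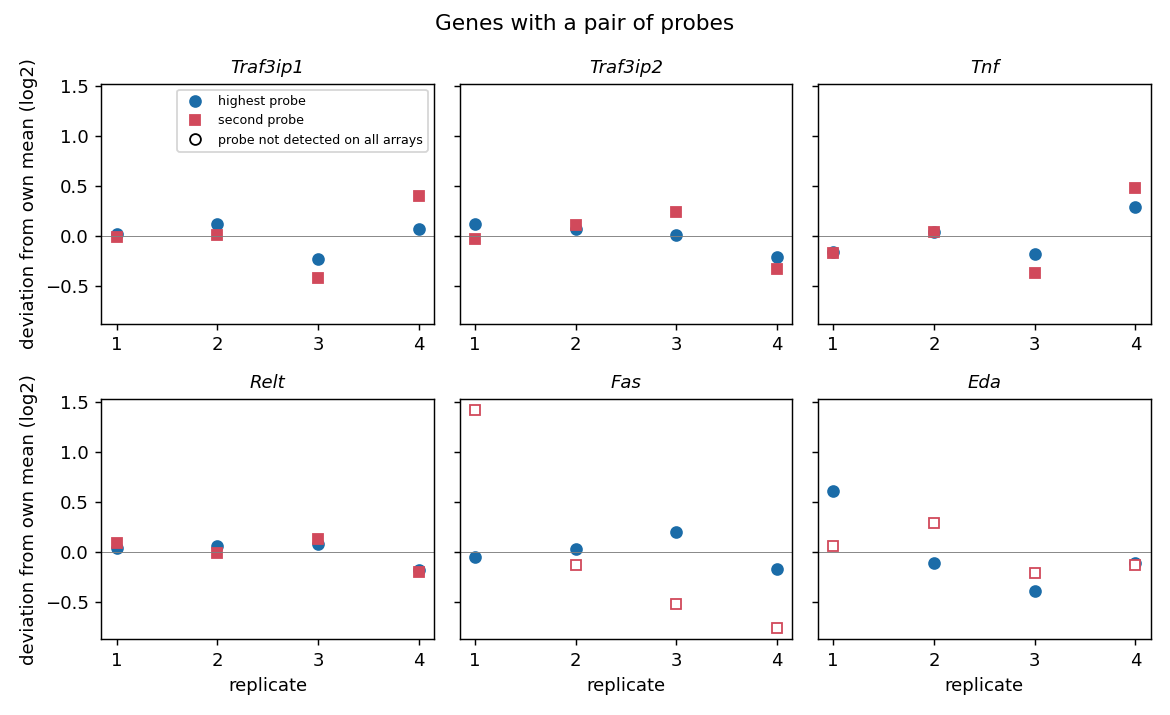
Deviation of each probe from its own mean (log2, y axis) on replicates 1 to 4 for 6 genes with a pair of probes, with open symbols where a probe was not well above background on all arrays. The probes of Tnf are highest on replicate 4 and those of Relt lowest there, while the probes of Fas differ on replicate 1 by over 1 log2 unit.

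Promoter sequence was examined as a property that the choice of genes had not used. RefSeq's table for GRCr8 gave a promoter for 31 of the 44 symbols, and the 250 bases before each gene start were read. CpG dinucleotides, which cluster in the promoters of broadly expressed genes, numbered 11.5 at the median over the 12 genes on all arrays with a promoter, from 2 to 29. Over the 10 genes on no array with a promoter the median was 5, from 4 to 11. Over all named genes the corresponding medians were 17 for 6680 genes on all arrays and 5 for 5811 genes on no array, so the medians of the family had the same order as those of other genes. The highest counts among measured members were 29 for Traf4, 26 for Traf3ip1, 21 for Traf2, 14 for Tnfrsf12a, 13 for Traf7 and 12 for Tnfrsf21. Traf1, on no array, had 5. Traf3 and Traf5, for which no probe was matched, had 47 and 23. Tnfsf13, Traf3ip3, Tnfrsf4, Tnfsf15 and Traf3ip2 had signal on all arrays with 2, 3, 4, 6 and 7 CpG, so a low count was found in either class.

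**Figure D5:**
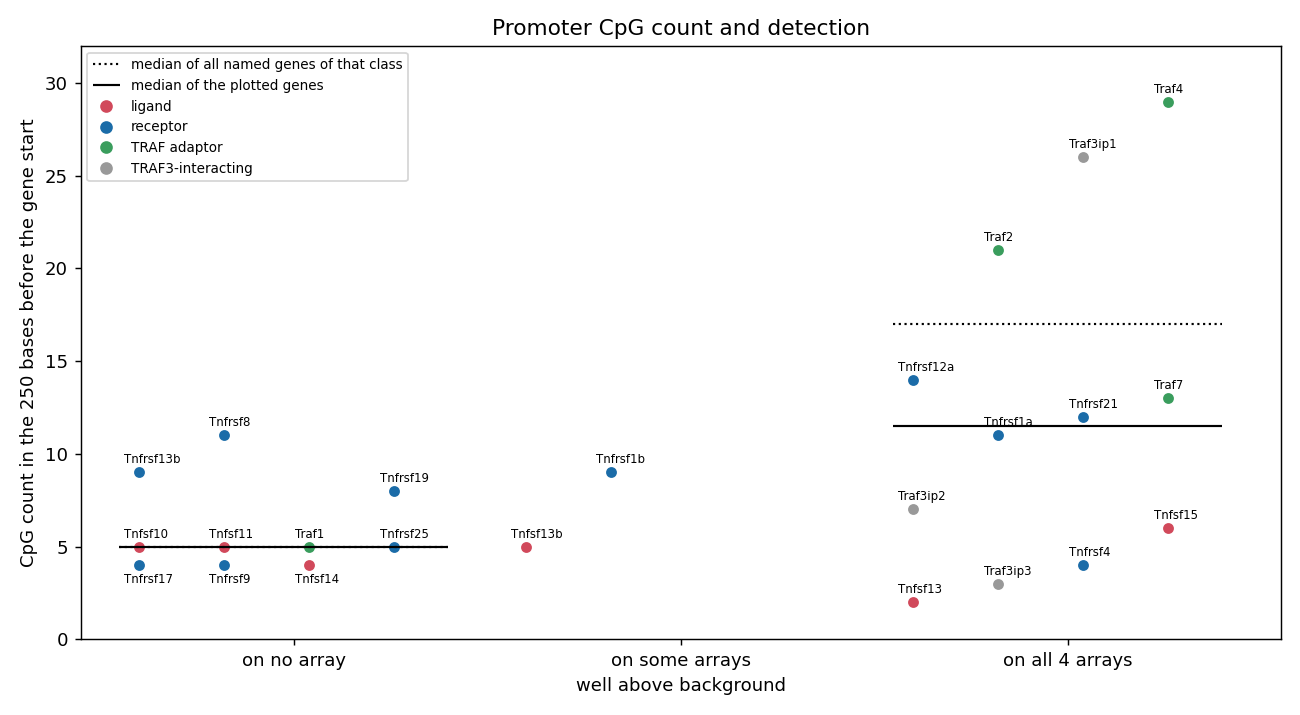
CpG count in the 250 bases before the gene start (y axis) for the 24 measured genes with a promoter, by whether the gene was well above background on no array, some arrays or all 4 arrays. Solid lines are medians of the plotted genes (5 and 11.5) and dotted lines those of all named genes of the same class (5 and 17).

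The sequences below were chosen to show the range of CpG content. Traf2 and Traf1 are partner adaptors with and without signal, Tnfrsf1a and Tnfrsf1b the pair of TNF receptors with similar counts of 11 and 9, and Tnfrsf12a the TWEAK receptor with 14. Tnfsf13, with signal on all arrays and 2 CpG, goes against the order of the medians. Each is the 250 bases before the gene start in GRCr8, 5′ to 3′ on the gene's strand, with CpG dinucleotides in capitals. They lie at chr10:54901816-54902065 on the minus strand for Tnfsf13, chr10:13213649-13213898 on the minus strand for Tnfrsf12a and chr4:159836869-159837118 on the plus strand for Tnfrsf1a. Those of Tnfrsf1b, Traf2 and Traf1 lie at chr5:162387412-162387661, chr3:28764644-28764893 and chr3:38635771-38636020, all on the minus strand.
Tnfsf13: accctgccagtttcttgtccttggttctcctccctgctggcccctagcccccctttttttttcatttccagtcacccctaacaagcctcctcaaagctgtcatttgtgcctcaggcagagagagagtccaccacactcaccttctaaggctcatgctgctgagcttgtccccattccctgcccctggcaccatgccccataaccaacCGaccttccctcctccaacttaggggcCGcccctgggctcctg
Tnfrsf12a: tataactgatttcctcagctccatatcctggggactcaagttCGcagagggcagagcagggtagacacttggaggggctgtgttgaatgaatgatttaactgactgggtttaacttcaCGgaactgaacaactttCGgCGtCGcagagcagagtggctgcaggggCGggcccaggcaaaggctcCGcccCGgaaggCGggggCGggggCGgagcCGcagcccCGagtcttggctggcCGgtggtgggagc
Tnfrsf1a: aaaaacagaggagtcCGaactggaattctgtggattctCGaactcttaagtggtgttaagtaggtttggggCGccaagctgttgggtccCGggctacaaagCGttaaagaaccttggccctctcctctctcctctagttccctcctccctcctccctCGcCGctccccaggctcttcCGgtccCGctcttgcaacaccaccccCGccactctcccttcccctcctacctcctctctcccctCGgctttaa
Tnfrsf1b: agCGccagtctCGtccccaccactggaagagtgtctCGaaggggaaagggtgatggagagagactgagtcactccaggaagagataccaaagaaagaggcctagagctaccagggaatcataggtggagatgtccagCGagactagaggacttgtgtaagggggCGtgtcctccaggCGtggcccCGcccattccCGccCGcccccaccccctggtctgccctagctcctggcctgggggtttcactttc
Traf2: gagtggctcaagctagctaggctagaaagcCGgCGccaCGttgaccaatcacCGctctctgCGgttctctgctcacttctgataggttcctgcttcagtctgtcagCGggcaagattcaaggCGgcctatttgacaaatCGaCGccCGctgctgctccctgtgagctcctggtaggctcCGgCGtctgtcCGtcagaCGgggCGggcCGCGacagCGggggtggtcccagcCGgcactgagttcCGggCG
Traf1: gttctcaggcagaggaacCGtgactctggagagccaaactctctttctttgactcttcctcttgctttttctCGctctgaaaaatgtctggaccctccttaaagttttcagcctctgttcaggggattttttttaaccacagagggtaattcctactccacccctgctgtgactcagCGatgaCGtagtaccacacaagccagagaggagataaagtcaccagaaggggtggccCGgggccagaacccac

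The capitals lie throughout the Traf2 sequence and gather in the part nearest the start in Tnfrsf12a, while Tnfsf13 has only 2. A search on both strands for the kappaB consensus found it in 5 of the 31 promoters, those of Tnfsf14, Tnfrsf8, Traf7, Traf3ip2 and Traf3, against 6.41% of all 27455 promoters. Of these genes, Traf7 and Traf3ip2 were on all arrays, Tnfsf14 and Tnfrsf8 on none, and no probe was matched for Traf3. The AP-1 motif TGANTCA was found in Tnfrsf1b, Tnfrsf8, Traf1 and Traf3ip2, against 6.36% of all promoters. The TATA motif TATAAA was found in Tnfsf11, Tnfsf15, Tnfsf18, Tnfrsf17 and Tnfrsf22, against 13.1%. A match describes letters in this window and not a site that is used.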

How the data were processed

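The deposited spot values are intensity, on a linear scale, from Agilent Feature Extraction 11.0.1.1, background-subtracted and detrended within each array and not normalized between arrays, per the file headers. Marks of background and of non-uniform spots are the software's. Control spots and non-uniform spots (1, 7, 0 and 6 on replicates 1 to 4) were dropped, log2 intensity was averaged by probe, and each array's 75th percentile was subtracted. Accessions without versions were matched to RefSeq's GRCr8 tables, which gave names, gene order and promoters and named 21109 of 45598 probes (46.3%). The probe with the highest mean gave a gene's level. A probe was detected if at least 50% of its spots had the mark. Genes detected on at least 2 arrays and complete on all 4 entered the variance test (limma 3.58.1, R 4.3.3, prior with a trend on mean level, threshold 0.05). On simulated data with known answers it made almost no false calls, and it recovered a minority of genes at the widest simulated spread and none at a narrower one.

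All 4 arrays lay on 1 slide with 1 scan, per the file headers. The members, lists, pairs, motifs and sequences shown were chosen with earlier results of these data known. Every member is named, each relative is given with its level or detection, and of the other lists only members not on all arrays or past the test, besides examples. A comparison of member proteins that had been planned was not analysed here.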

Additional observations from a re-analysis of the deposited data

Results flagged for a closer look

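Relt, which encodes an orphan receptor of the family, had levels of 4.38, 4.39, 4.41 and 4.15 on replicates 1 to 4, and replicate 4 stood apart from the other arrays by 0.854 of the whole range, above Dixon's 95% critical value of 0.829 for 4 samples. The other Relt probe was lowest on replicate 4 too, at 0.19 against 0.37 to 0.52. The cause was not tested. This was 1 of 20 genes examined in this way, the 14 family members and 6 relatives on all arrays, and chance marks about 1 in 20, so that a single case is what chance alone would give on average. No numbered member of the family stood apart by this measure.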

How the results depend on the processing

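The count of 14 members on all arrays was 19 when the software's weaker mark of a positive and significant signal was used, adding Tnfsf9, Tnfsf13b, Tnfrsf1b, Tnfrsf8 and Tnfrsf11a. It lay between 14 and 15 when a replicate was left out, the added gene without replicate 1 being Tnfsf9. No member passed the variance test (limma) under any of the 13 alternatives run. Since the test missed most genes of widened spread in simulated data, this does not show that the members' spread was ordinary. The count over all genes, 69, ranged from 0 with another percentile or a prior without trend to 356 with dim probes kept. The members' median SD lay between 0.122 with quantile normalization and 0.154 with normexp background correction. The SD of 9 of the 14 members moved by over 1.5 times when some replicate was left out. The number of members lowest on replicate 1, 5 of 14, was 3 with normexp background correction, chosen after seeing the data and run on median spot signals because the planned run on mean signals could not be made from these columns. The percentile over detected probes moved all levels by -3.52, that over all spots by -2.36 and normexp the median gene by -0.49, so the sign of a level has no meaning of its own. No paired analysis was possible because the arrays belong to 1 group. Precision is limited by 4 arrays and, for Tnfrsf1b, Tnfrsf4, Tnfrsf11a, Tnfsf9 and Tnfsf13b, by signal close to background.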

Other observations

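Because Tnfrsf11a (RANK) was detected on 2 arrays, the fixed list of osteoclast markers was examined. All 4 arrays gave signal for 3 of its 4 measured genes, against 48% of all named genes. With so few genes these shares were not tested against each other. The calcitonin receptor gene Calcr had levels of 1.84, 1.91, 1.81 and 1.81 on replicates 1 to 4 (mean 1.84 ± 0.048, SD, n = 4), the acid phosphatase gene Acp5 0.27, 0.70, 0.093 and -0.016, and the receptor gene Oscar -1.83, -1.64, -2.09 and -1.14. The collagen-degrading protease gene Ctsk was on no array, and Dcstamp was not matched to a probe. Whether these transcripts go together in the same cells was not tested. Calcr had 2 probes, of which the higher gave its levels, and the other was not followed.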
